A study of Oryctolagus cuniculus with 6 samples.

Results

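The solute carriers are the largest group of membrane transporters, and 193 of their genes were followed in newly formed tissue of rabbit skull defects. Members were all genes whose array description names a solute carrier family, with SLC2A3 left out, and each gene was read from its brightest probe over the 6 arrays. A gene counted as measured where 3 or more of the 6 arrays had that probe well above background, which held for 174 of the 193 members, against 20181 of 23320 features on the whole array. Of the 174, 161 were above background on all 6 arrays, 7 on 5, 3 on 4 and 3 on 3. Of the 19 left out, 11 were above background on no array and 8 on 1 or 2.

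The tissue came from male New Zealand White rabbits (Oryctolagus cuniculus) 4 months of age. In each of 24 animals, circular defects 5 mm wide were drilled in the parietal bone. Those on the right side received 0.2 g of HPD, human particulated dentin used as a bone graft, while the other defects of the same animals stayed empty and are called Control. RNA of the new tissue was hybridised with a single dye on 1 array per treatment on days 3, 5 and 7, so that n = 1 for each treatment and day. Whether an array holds RNA of 1 animal or a pool is not stated, and no genetic change was made in any group.

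Solute carriers move ions, nutrients and metabolites across the cell membrane or the membranes of organelles, either down a gradient or by coupling transport to sodium or protons. Healing bone depends on them for the glucose and amino acids that feed matrix-forming cells, for phosphate that goes into mineral, and for the export of lactate. Family numbers group carriers of related sequence, and carriers of the same substrate can lie in different families. The 174 measured members covered 40 families. NHERF1, NHERF2 and SLC7A6OS carry the family name in their descriptions but are no transporters themselves, both NHERF proteins being scaffolds that bind carriers.

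Each level is the log2 of the processed signal minus the 75th percentile of its array, called the scaled signal. A difference is given on the log2 scale, with Control subtracted from HPD or the earlier day from the later. Since a probe's brightness depends on its sequence, levels are compared only between arrays and never between genes. In such bulk tissue, fewer cells of a type and less RNA per cell cannot be told apart. Between 78.1% and 86.4% of spots were well above background, and 0 were saturated. Both day 3 arrays lay on 1 slide and the 4 arrays of days 5 and 7 on the other, so day 3 and slide cannot be told apart in any comparison of days, while HPD and Control of a day always shared a slide.

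The probes behind the results below are 60-base oligonucleotides on the array, and for 7 members the first 30 bases are shown. SLC6A6, with the widest difference by treatment, and SLC7A5 and SLC16A4, with wide differences by day, rest on a single probe each, which is why theirs are given. The SLC2A1 probe stands for 5 overlapping ones that agree, and SLC20A1, SLC2A4 and SLC4A4 are each shown with a second probe that gave another difference. Coordinates are those of the deposited files on oryCun2 for the whole probe, and no gene annotation of that build was used, so exon or untranslated region is not stated.
SLC6A6 (chr9:9989874-9990430, plus strand): ttgttattgcctggatctacggcggtgata
SLC7A5 (no position in the files): agctttgcttctgtttgttttgtcctaaca
SLC16A4 (chr13:53804795-53804854, plus strand): attctacagtgcacagttttttgggacttg
SLC2A1 (chr13:123861246-123861306, plus strand): ccaacttgtaaatacaccaacacatccttc
SLC20A1, probe read (chr2:97451850-97452358, plus strand): ttctagtggctttagtattgagctggcgtc
SLC20A1, second probe (chr2:97451811-97452319, plus strand): tatccagaccatggggaaggatctgactcc
SLC2A4, probe read (chr19:11862617-11862676, minus strand): tagagcaggaggtgaagcccagcacggaac
SLC2A4, second probe (chr19:11861804-11861863, minus strand): gccaaggtctgctgtactaaatgtgtctat
SLC4A4, probe read (chr15:78495898-78499256, minus strand): atgatgattctgactgcccctactcagaaa
SLC4A4, second probe (chr15:78499295-78499354, minus strand): cctcagcttccttgatgatgtcattccaga
The SLC6A6, SLC20A1 and first SLC4A4 probes span 557, 509 and 3359 bases of genome, more than their own 60 bases.

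Setting grafted beside empty defects asked how transporter expression differed with the graft over the 3 days. Carriers of glucose, amino acids, phosphate, lactate and the osmolyte taurine mostly had higher scaled signals with HPD, whereas zinc carriers lay about evenly on both sides. Over all 174 members, the median difference was 0.16, against 0.09 over all 20181 features, and 125 members (71.8%) were higher against 62.7% of all features. On the same side on every day, 54 members (31.0%) were higher with HPD, against 26.4% of all features, and 9 (5.17%) were lower, against 11.0%. In the limma fit with day and treatment as terms, 0 of the 174 members passed the Benjamini-Hochberg threshold of 0.05, as did 0 of all features (0%). The smallest adjusted p of a member was 0.555. At an unadjusted p under 0.05 stood 15 members (8.62%), near the 8.58% of all features, and 14 of the 15 were higher with HPD, where 7.18% of all features were higher and 1.40% lower at that level. These shares move with the scaling. With each array shifted to its median, 51.1% of members and 44% of all features were higher, and the median of all features became -0.04. With quantile normalization 62.6% of members and 53.9% of all features were higher, and with normexp background correction 63.2% and 49.7%. Normexp also took the class medians of glucose, amino acid, phosphate and lactate carriers from 0.29, 0.22, 0.32 and 0.30 to 0.12, 0.08, 0.14 and 0.13. The class counts below stand beside 62.7% of all features higher in the mean and 26.4% higher on every day.

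SLC6A6, the sodium-coupled taurine transporter of the cell surface, had the widest difference between treatments of any member. The scaled signal in Control was -4.93, -5.18 and -5.71 on days 3, 5 and 7, and with HPD it was -1.23, -3.75 and -4.29. All 3 HPD arrays lay above all 3 Control arrays, and the Control value of day 7 was not well above background. The difference was 13.0-fold on day 3 and 2.68-fold on day 5, and at least 2.08-fold on day 7. The mean over the days was 2.18 ± 0.52 (SE, limma fit of 6 arrays; adjusted p = 0.555). The probe was dim, and normexp correction, which compresses dim signals, gave 1.82 on day 3 but 0.02 and 0.16 on days 5 and 7. The pattern of SLC6A6 over the 6 arrays was compared with those of the 161 members above background on all of them. Most alike were SLC23A1 (ascorbate transporter, Pearson r = 0.98), SLC24A4 (potassium-dependent sodium-calcium exchanger, r = 0.95) and SLC16A14 (r = 0.93). These correlations are a description over arrays that share their scaling. CDO1, which makes a precursor of taurine from cysteine, differed the other way on days 3 and 5, by -1.39 and -0.82, and by 0.07 on day 7 (mean -0.71 ± 0.31 SE, adjusted p = 0.555).

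The other carriers of creatine and organic osmolytes also had means above 0, so that 6 of 6 members of the class were higher with HPD (median 0.34), though only 2 of 6 on every day. SLC6A8, the creatine transporter, was at -0.83 in Control and 0.30 with HPD on day 3, a 2.19-fold difference. On days 5 and 7 its Control values of 0.82 and 0.78 lay beside HPD values of 0.58 and 1.05, lower on day 5 and higher on day 7. SLC6A12, which carries betaine and GABA, was 2.12-fold higher with HPD on day 3 and 1.07-fold and 1.35-fold on days 5 and 7. SLC6A13, a GABA and taurine carrier, was 0.593-fold on day 3 and 2.05-fold on day 5. The myo-inositol carriers SLC5A3 and SLC5A11 differed by means of 0.16 and 0.23.

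**Figure D1:**
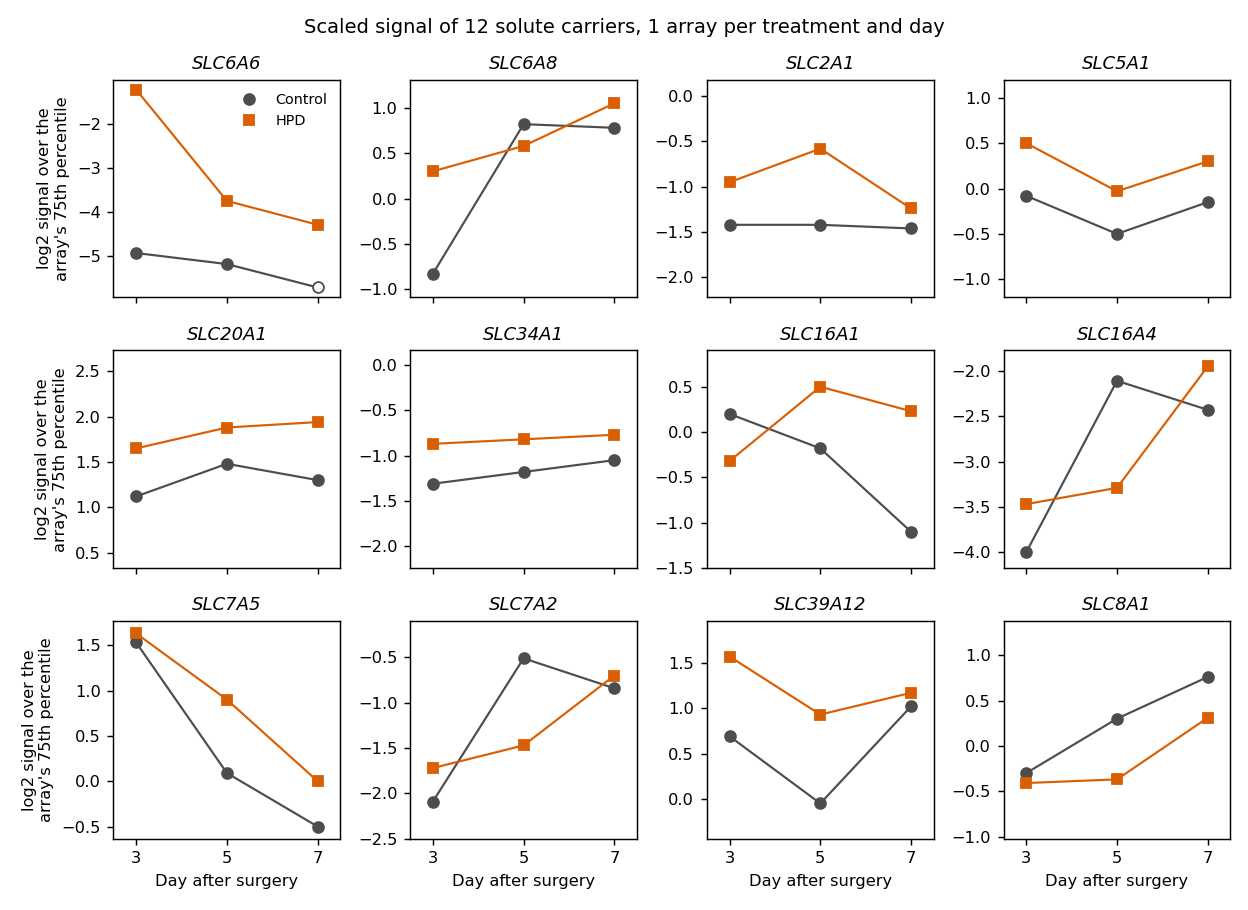
Scaled signal (log2 over the array's 75th percentile, y axis, each panel spanning at least 2.4 units) by day after surgery (x axis) for 12 solute carriers. Grey circles are Control and orange squares HPD, each point is 1 array, and the open circle is not well above background; SLC6A6 lies at -1.23 with HPD and -4.93 in Control on day 3, and SLC7A5 is lower from day 3 to day 7 under both treatments.

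Among glucose and hexose carriers, 7 of 9 measured members had a higher mean with HPD and 6 were higher on every day, with a class median of 0.29. SLC2A1, the carrier of basal glucose uptake in most cells, was at -1.42, -1.42 and -1.46 in Control on days 3, 5 and 7. With HPD it was at -0.95, -0.58 and -1.24, above every Control array. The mean difference was 0.51 ± 0.18 (SE, adjusted p = 0.555), and the 5 SLC2A1 probes, which overlap almost wholly, gave means of 0.46 to 0.53. SLC5A1, the sodium-coupled glucose carrier of gut and kidney, was at -0.08, -0.50 and -0.15 in Control and 0.50, -0.03 and 0.30 with HPD. Its mean difference was 0.50 ± 0.13 (SE), and all 3 of its probes above background on every array gave positive means of 0.42 to 0.58. SLC5A2, the kidney's main sodium-coupled glucose carrier, differed by 0.39 and SLC5A9, a mannose and fructose carrier, by 0.29. SLC37A4, which brings glucose 6-phosphate into the endoplasmic reticulum, differed by 0.24. SLC5A4, known as a glucose sensor, was 0.628-fold on day 3 and 1.72-fold on day 5. SLC2A5, the fructose carrier, and SLC2A8, an intracellular hexose carrier, were the only class members with lower means, by -0.24 and -0.17.

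For SLC2A4, the insulin-responsive carrier of muscle and fat, the value depended on the probe. The probe read was at -3.69, -3.54 and -3.30 in Control and -3.25, -2.88 and -3.01 with HPD, a mean difference of 0.47 ± 0.15 (SE, adjusted p = 0.555). The 5 other probes lie together at another site of the gene, shifted from each other by single bases. All of these were lower with HPD on day 3, the brightest by -0.77, and averaging the probes turned the mean to -0.36. Normexp gave 0.12 for the probe read. SLC2A2 and SLC2A9 were among the members not measured. Outside the family, HK2, which phosphorylates the glucose taken up, differed by 0.58 ± 0.25 (SE) and HK1 by 0.30 ± 0.14, both with an adjusted p above 0.5. HK3 changed direction, with -1.09, 0.89 and 0.57 on days 3, 5 and 7 (mean 0.12 ± 0.43 SE).

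All 6 measured phosphate carriers had higher means with HPD, 4 of them on every day, with a median of 0.32. SLC20A1, a ubiquitous sodium-phosphate carrier linked to mineralisation, was at 1.12, 1.48 and 1.30 in Control and 1.65, 1.88 and 1.94 with HPD, with no overlap. The mean difference was 0.52 ± 0.14 (SE, adjusted p = 0.555). The 4 other SLC20A1 probes, again nearly the same oligonucleotide, gave means of only 0.04 to 0.21, and 3 of the 4 were lower with HPD on day 7. SLC34A1, the phosphate carrier of the kidney, was at -1.31, -1.18 and -1.05 in Control and -0.87, -0.82 and -0.77 with HPD, a mean difference of 0.36 ± 0.13 (SE). SLC20A2, the other ubiquitous carrier, differed by 0.28. SLC17A1, SLC17A2 and SLC17A4, named as phosphate carriers and also known to move organic anions, differed by means of 0.12, 0.13 and 0.68. The last of these varied most, with HPD 4.85-fold above Control on day 5 and 0.547-fold on day 7. SLC17A2 with HPD was not well above background on day 7.

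The phosphate and pyrophosphate genes outside the solute carriers by description differed in the same direction. XPR1, which exports phosphate, was higher with HPD by 0.84, 0.67 and 1.08 on days 3, 5 and 7 (mean 0.86 ± 0.15 SE). ENPP1, which makes pyrophosphate outside the cell, was higher by 0.86, 0.96 and 0.63, and ANKH, which takes part in pyrophosphate release, by 0.64, 0.34 and 0.58. The adjusted p was 0.555 for each. Of 25 measured genes in the list of pathway partners, 20 had higher means with HPD, where 62.7% of all features were higher. In the limma fit 5 of the 25 had an unadjusted p under 0.05, against 8.58% of all features, and 0 passed after adjustment. The median of the list was 0.16, and it was 0.18 with quantile normalization and 0.02 with the median shift.

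Lactate and other monocarboxylate carriers had a median difference of 0.30, and 6 of 8 had higher means with HPD, 3 on every day, against 62.7% and 26.4% of all features. SLC16A1, which moves lactate with a proton, was at 0.20, -0.18 and -1.10 in Control and -0.32, 0.50 and 0.23 with HPD. The difference therefore went from 0.696-fold on day 3 to 1.60-fold on day 5 and 2.51-fold on day 7 (mean 0.49 ± 0.38 SE, adjusted p = 0.637). BSG, the partner that carries SLC16A1 to the membrane, differed by -0.47, 0.71 and 0.08, and LDHA, which makes lactate, by 0.42, 1.0 and -0.34. SLC16A6, a carrier of ketone bodies, was at 0.26, -2.14 and -0.12 in Control and 0.37, -0.08 and -0.63 with HPD, so the 4.16-fold difference of day 5 followed a single low Control array. SLC16A11, SLC16A12, which carries creatine, and SLC16A14 were higher with HPD on every day, by means of 0.31, 0.33 and 0.28. For SLC16A12 this holds for the probe read only in part, as normexp gave it a mean of 0.07 and -0.06 on day 5. All 6 SLC16A12 probes ran from -0.71 to 0.61 in the mean. SLC16A7, another lactate carrier, and SLC16A9, which carries carnitine, differed by means of 0.04 and -0.06. For SLC16A4 the mean was -0.06, with 0.441-fold on day 5 and 1.44-fold and 1.40-fold on days 3 and 7.

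**Figure D2:**
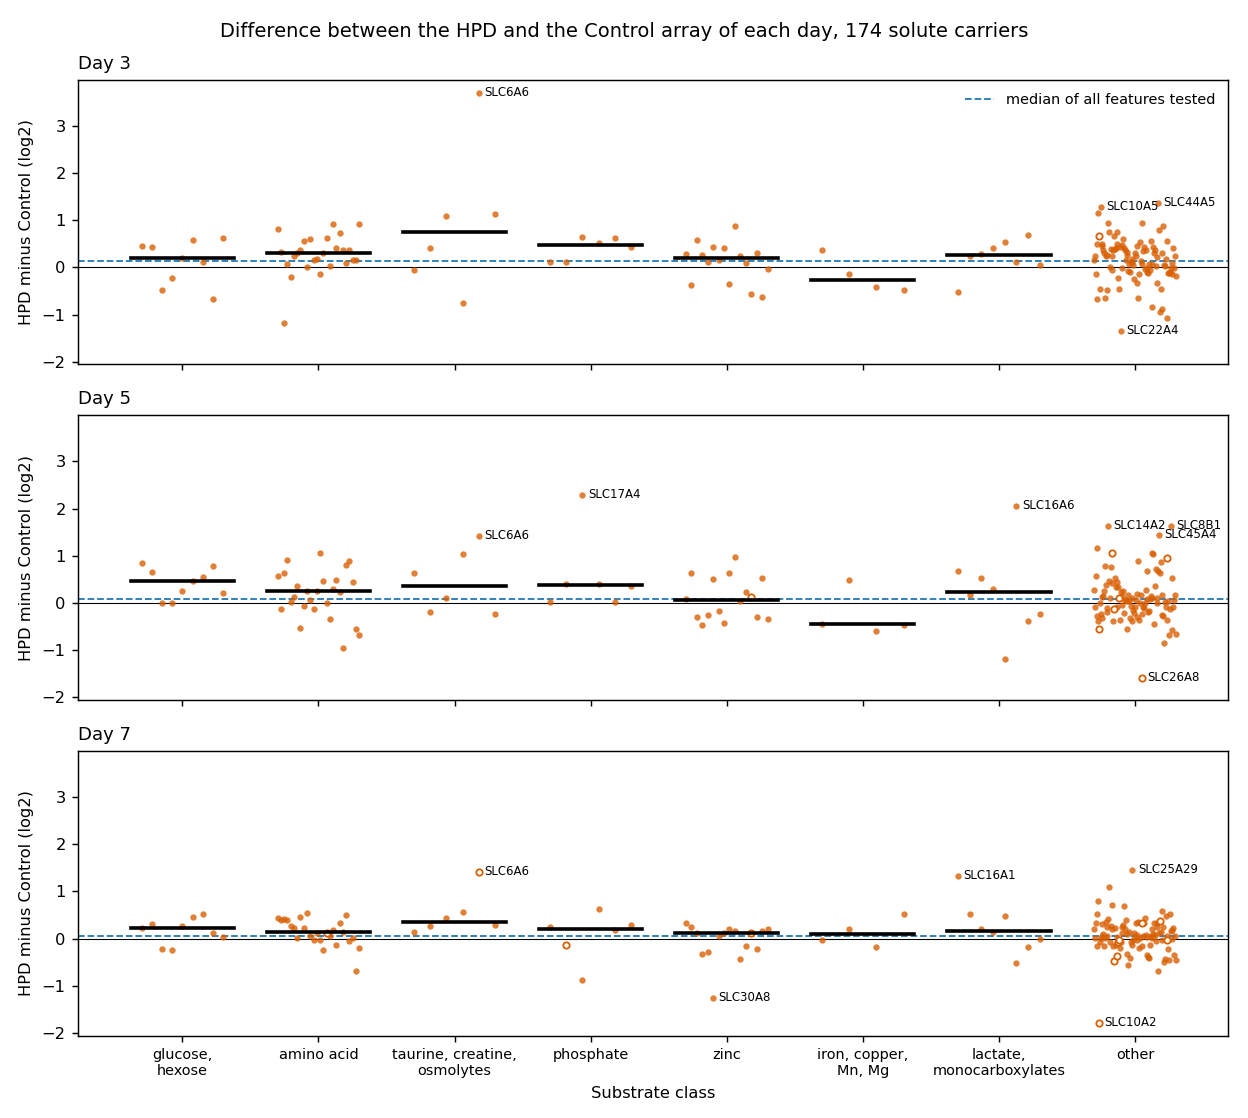
Difference between the HPD and the Control array of each day (log2, y axis) for the 174 measured solute carriers by substrate class (x axis). Each point is 1 gene, open points are not well above background on both arrays, black bars are class medians, and the dashed line is the median of all features; the glucose median lies at 0.20, 0.47 and 0.22 and the zinc median at 0.21, 0.07 and 0.11 on days 3, 5 and 7.

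Amino acid carriers of the cell surface and lysosome formed the largest class, with 26 of 29 members measured. Of these, 22 had higher means with HPD, 11 on every day and 0 lower on every day, with a median of 0.22. SLC7A5, the exchanger of leucine and other large neutral amino acids, differed by 1.07-fold, 1.76-fold and 1.41-fold on days 3, 5 and 7 (mean 0.47 ± 0.19 SE, adjusted p = 0.555). SLC3A2, the chain that pairs with SLC7A5 at the membrane, was at -0.96, -1.89 and -1.38 in Control and -1.10, -0.84 and -1.43 with HPD, so that it differed by 2.07-fold on day 5 and by little on the other days. SLC1A1, a glutamate carrier, SLC6A7, a proline carrier, and SLC7A14, a lysosomal member, differed by 0.46, 0.47 and 0.43. For SLC1A1 the value depended on the probe, since the other of its 2 probes gave a mean of -1.12. LOC100346895, described as the glutamate carrier SLC1A7, differed by 0.61 ± 0.15 (SE), and by 0.07 with normexp. The glutamine carriers SLC1A5, SLC38A2 and SLC38A3 differed by 0.03, 0.10 and 0.24. SLC7A8, another exchanger of neutral amino acids, had the lowest mean of the class, -0.36 ± 0.22 (SE), with HPD 0.621-fold of Control on day 7. That value depended on the probe, since 5 overlapping probes gave means of -0.42 to -0.34, while a probe at another site was higher with HPD on every day, by 0.78, 1.43 and 0.56 (mean 0.93). SLC16A10, a carrier of aromatic amino acids, was 0.443-fold on day 3 and 1.55-fold on day 5.

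ARG1, which splits arginine, and NOS2, which makes nitric oxide from it, share a substrate with SLC7A2, a carrier of arginine and other cationic amino acids. ARG1 was higher with HPD by 0.63, 2.60 and 1.54 on the 3 days (mean 1.59 ± 0.40 SE, adjusted p = 0.555) and NOS2 by 0.19, 0.36 and 0.60. SLC7A2 itself was at -2.09, -0.51 and -0.84 in Control and -1.72, -1.47 and -0.70 with HPD. It was 0.514-fold on day 5, the second lowest of the members above background on all arrays, and higher by 0.37 and 0.14 on days 3 and 7. The enzymes of glutathione synthesis GCLC and GCLM, which draw on cysteine and glutamate, differed by means of -0.35 and -0.36, and GSS of the same pathway by 0.09. On days 3, 5 and 7 GCLM differed by -1.13, 0.44 and -0.38.

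Zinc carriers showed no common direction, with a median of 0.02 and 9 of 16 higher, 2 on every day, against 62.7% and 26.4% of all features. SLC39A12, a zinc importer known from brain, differed most, at 0.69, -0.05 and 1.02 in Control and 1.57, 0.93 and 1.17 with HPD (mean 0.67 ± 0.22 SE, adjusted p = 0.555). A second SLC39A12 probe that overlaps the first gave a mean of 0.22. SLC30A8, the zinc carrier of insulin granules, was at -3.90, -3.97 and -2.17 in Control and -3.47, -3.46 and -3.42 with HPD, so the 0.418-fold value of day 7 followed a single high Control array. SLC30A2, SLC30A3 and SLC39A11 had means of 0.24, 0.17 and 0.16, and SLC30A5, which loads zinc into the secretory pathway, had -0.18. SLC39A8 and SLC39A14, importers of zinc, iron and manganese, both differed by -0.05. The 4 measured carriers of iron, copper and magnesium had a median of -0.09, and SLC25A28, an iron carrier of mitochondria, was lower with HPD on every day (mean -0.39 ± 0.15 SE).

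Outside these classes the highest means belonged to SLC14A2, a urea transporter, at 1.0 ± 0.27 (SE), SLC45A4 at 0.79 ± 0.29 and SLC15A1, the peptide carrier of the gut, at 0.76 ± 0.18, each with an adjusted p of 0.555. SLC14A2 was at -3.52, -4.40 and -3.17 in Control and -2.58, -2.75 and -2.77 with HPD. Of its 7 probes, 5 were above background on no array, and the 1 other above background on all arrays gave 0.81, 1.04 and -0.42 (mean 0.47). Normexp gave means of 0.31 for SLC14A2, 0.43 for SLC45A4 and 0.35 for SLC15A1. SLC15A1 was at -3.09, -3.28 and -2.47 in Control and -2.35, -2.81 and -1.37 with HPD, and its 4 probes above background on every array gave means of 0.34 to 0.76. SLC15A3, the peptide and histidine carrier of lysosomes in immune cells, was higher on every day by a mean of 0.48 ± 0.16 (SE). SLC8B1, the mitochondrial sodium-calcium exchanger, was 3.08-fold higher on day 5 and close to Control on days 3 and 7. SLC25A29, which carries basic amino acids into mitochondria, was 2.72-fold higher on day 7.

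Among members above background on all arrays, the lowest means belonged to SLC6A4, the serotonin transporter, at -0.46 ± 0.25 (SE), SLC9A9, a sodium-proton exchanger of endosomes described on the array as member 7-like, at -0.43 ± 0.16 (-0.19 with normexp), SLC4A3, an anion exchanger, at -0.43 ± 0.22, and SLC8A1, the sodium-calcium exchanger of the cell surface, at -0.41 ± 0.17. SLC8A1 was at -0.30, 0.30 and 0.76 in Control and -0.41, -0.37 and 0.31 with HPD, and all 6 of its probes, 5 of them overlapping, were lower with HPD on all 3 days. SLC10A2, above background on just 3 arrays, had a mean of -0.55 ± 0.49 (SE). SLC22A4, a carrier of organic cations, and SLC25A17, a carrier of peroxisomes, differed by -0.39 and -0.28. SLC13A5, the citrate carrier, SLC26A2, the sulfate carrier needed for cartilage matrix, and SLC27A3, which activates fatty acids, differed by 0.13, 0.18 and -0.10.

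On single days, members at least 2-fold apart and above background on both arrays made up a share near that of all features. On day 3, 6 of 173 members were at least 2-fold higher with HPD and 3 lower, together 5.20% against 6.44% of all features (3.58% higher and 2.87% lower). The higher ones were SLC6A6, SLC44A5 (choline-like carrier family, 2.56-fold), SLC10A5 (2.43-fold) and SLC10A1 (2.22-fold) of the bile acid carrier family, SLC6A8 and SLC6A12. The lower ones were SLC22A4 (0.395-fold), SLC16A10 and SLC6A4 (0.478-fold). On day 5, 11 of 167 were higher and 1 lower, together 7.19% against 6.55% (4.87% higher and 1.67% lower). The higher ones were SLC17A4, SLC16A6, SLC14A2 (3.12-fold), SLC8B1, SLC45A4 (2.74-fold), SLC6A6, NHERF1 (2.24-fold), SLC3A2, SLC6A13 and the orphan carriers SLC35E4 and SLC35F2, and the lower one was SLC16A4. On day 7, 3 of 162 were higher and 1 lower, together 2.47% against 2.49% (1.64% higher and 0.852% lower). The 3 were SLC25A29, SLC16A1 and SLC15A1, and the 1 was SLC30A8. No test is possible on a single day with 1 array per treatment.

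Several cell type markers differed between the arrays as well. The 7 measured macrophage markers of 9 were all higher with HPD in the mean (median 0.50), and their summed signal, in multiples of the array's 75th percentile, was 31.4, 17.1 and 17.6 in Control and 45.6, 35.4 and 23.3 with HPD on days 3, 5 and 7. The 7 measured erythroid markers of 12 had a median difference of -1.75 on day 3, with summed signals of 44.3 in Control and 14.3 with HPD. Their medians on days 5 and 7 were 0.57 and 0.19. SLC4A1, the anion exchanger of red cells, was at -1.54 in Control and -2.42 with HPD on day 3, a difference of -0.88, and differed by 0.58 on day 7. The 11 measured osteoblast markers of 12 had a median difference of -0.55 on day 5, when 4 were higher with HPD and 5 at least 2-fold lower. Summed over all 11, the signals on day 5 were 1370 in Control and 1020 with HPD. On day 7 all 11 were higher with HPD (median 0.68), with summed signals of 1210 and 1610. SLC16A4, SLC4A3, SLC7A2 and SLC8A1, picked from the 5 lowest members of day 5, were 0.441-fold to 0.629-fold on that day. They were chosen by these same day 5 values, and a link to the osteoblast markers was not tested. For day 7 the differences of SLC16A4, SLC7A2 and SLC8A1 were 0.48, 0.14 and -0.45, so SLC8A1 stayed lower with HPD. On day 3 the 9 measured neutrophil markers of 11 had a median difference of -1.40, 5 of them at least 2-fold lower with HPD, with summed signals of 1050 in Control and 385 with HPD. Later they differed the other way, with medians of 0.29 and 0.56 on days 5 and 7 and 7 and 8 of the 9 higher. The 6 measured osteoclast markers of 10 had a median of 1.16 on day 3, 4 of them at least 2-fold higher, with sums of 63.7 and 127. Their medians on days 5 and 7 were -0.05 and -0.02. All these sums are weighted to the brightest probes, such as COL1A2 among osteoblast and ALAS2 among erythroid markers. Of 10 brain markers, 4 were measured, with summed signals of 0.215 to 0.395. The part of these cells in the solute carrier differences was not tested.

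The comparison of day 7 with day 3 asked how the carriers differed as the defect healed, over both treatments. SLC7A5, the large neutral amino acid exchanger, was lower on day 7 under both treatments, while SLC16A4, the creatine carrier SLC6A8 and the arginine carrier SLC7A2 were higher. Day 3 lay on a slide of its own, so healing and slide cannot be told apart in these differences. The median over members was -0.13 against -0.01 over all features, and 68 of 174 (39.1%) were higher, against 48.9% of all features. In the limma fit 0 members passed the threshold, against 1 of all 20181 features (0.00496%), and the smallest adjusted p of a member was 0.119. At an unadjusted p under 0.05 stood 38 members (21.8%), near the 20.9% of all features. Of these, 19 were higher and 19 lower, where 10.8% of all features were higher and 10.1% lower. With normexp the median of all features moved to 0.17 and that of the members to 0.07, and 59.2% of members were then higher in place of 39.1%. The median of the members lay below that of all features under both settings.

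Amino acid carriers were lower on day 7 in 20 of 26 members (median -0.20). SLC7A5 was at 1.53 and 1.63 on day 3, at 0.09 and 0.90 on day 5 and at -0.50 and 0.00 on day 7, for Control and HPD in turn. The difference from day 3 to day 7 was -1.83 ± 0.23 (SE, adjusted p = 0.119), and that within the slide of days 5 and 7 was -0.74 ± 0.23 (adjusted p = 0.600). SLC7A7, which exchanges cationic for neutral amino acids, and SLC38A3 differed by -0.79 and -0.61, SLC7A8 by -0.51 and the partner chain SLC3A2 by -0.38. SLC7A2 differed in the other direction, by 1.14 ± 0.37 (SE, adjusted p = 0.207), and its 4 probes gave 0.35 to 1.14. Within the slide of days 5 and 7, SLC7A2 went from -0.51 to -0.84 in Control and from -1.47 to -0.70 with HPD. ARG1 was lower by -3.89 ± 0.49 (SE, adjusted p = 0.119).

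The creatine carrier SLC6A8 was higher on day 7 by 1.18 ± 0.36 (SE, adjusted p = 0.193), with both day 7 arrays, at 0.78 and 1.05, above both day 3 arrays, at -0.83 and 0.30. On day 5, on the slide of day 7, it was already at 0.82 in Control and 0.58 with HPD. SLC16A4, a monocarboxylate carrier family member, was at -4.00 and -3.47 on day 3 and -2.43 and -1.95 on day 7, a difference of 1.55 ± 0.49 (SE, adjusted p = 0.198) that was 0.96 with normexp. Day 7 minus day 5 of SLC16A4, within 1 slide, was 0.51 ± 0.49 (SE). The other monocarboxylate carriers were mostly lower, so that the class median was -0.28 with 6 of 8 lower. SLC6A6 was lower on day 7 by -1.92 ± 0.64 (SE, adjusted p = 0.213), with 1 of its 2 day 7 arrays not above background, and by -0.52 with normexp. Glucose carriers had a median of -0.17, with 7 of 9 lower and none beyond -0.34, and HK1, HK2 and HK3 were lower by -0.87, -0.92 and -1.81. The phosphate class had a median of -0.19 with 4 of 6 lower, and SLC20A1 was higher by 0.23 with the probe read and lower with its 4 other probes, by -0.38 to -0.55. Zinc carriers had a median of 0.07, from -0.46 for SLC39A7, which releases zinc from the endoplasmic reticulum, to 0.89 for SLC30A8. SLC39A6, described on the array as member 5-like, and SLC39A10, both zinc importers, were higher by 0.52 and 0.45.

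Beyond these classes NHERF1, the scaffold protein, had the lowest value, -2.15 ± 0.47 (SE, adjusted p = 0.145). It was at 0.91 and 0.24 on day 3 and -1.83 and -1.32 on day 7, for Control and HPD. Of its 6 probes 5 were lower by a like amount, down to -2.32, and 1 differed by 0.12. SLC46A2, above background on 5 arrays, was lower by -1.43 ± 0.43 (SE, adjusted p = 0.191). SLC10A4 and SLC4A4, a sodium-bicarbonate carrier, followed at -1.10 and -1.09, and the choline carrier SLC44A2, SLC15A3, the nucleobase carrier SLC43A3 and SLC35A4 at -0.98, -0.92, -0.83 and -0.82. With normexp SLC10A4, SLC44A2, SLC43A3 and SLC35A4 came to only -0.14, -0.54, -0.20 and -0.29. For SLC4A4 the 4 probes above background on every array ran from -1.09 to 2.13 over 1 stretch of the gene, so no direction is given. LOC100343888, described as the magnesium carrier SLC41A2, was higher by 1.09 ± 0.25 (SE, adjusted p = 0.147). SLC8A1 was higher by 0.89 ± 0.21 (SE, adjusted p = 0.149), and its 6 probes gave 0.83 to 1.18. SLC9A5, a sodium-proton exchanger, and SLC4A3 were higher by 0.87 and 0.85.

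**Figure D3:**
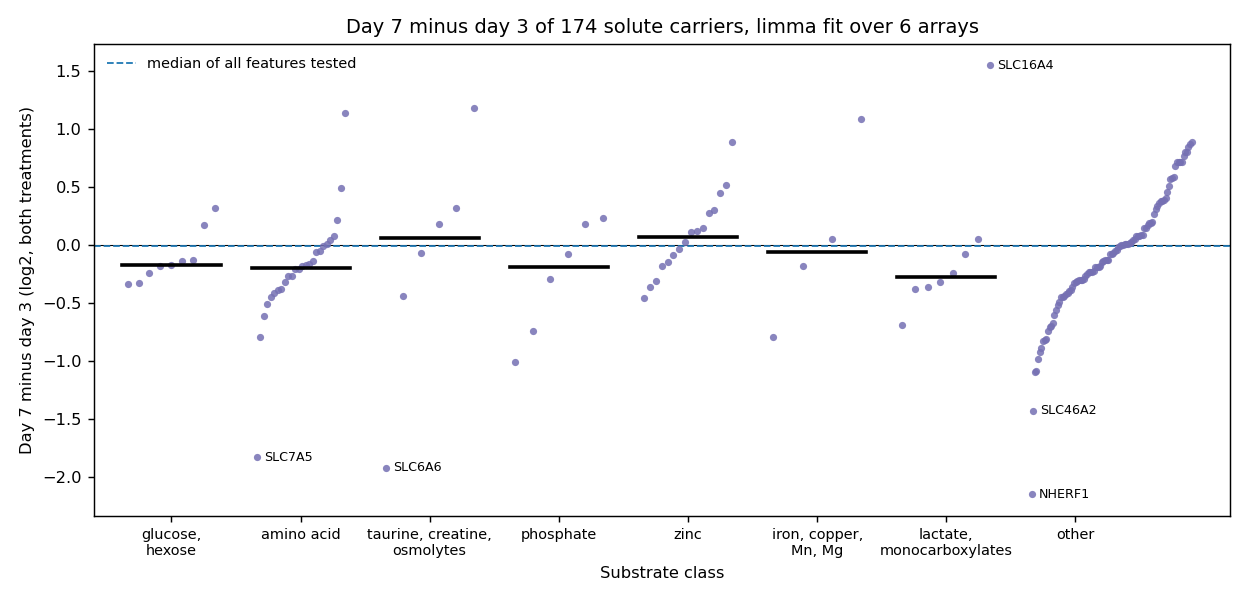
Day 7 minus day 3 over both treatments (log2, limma fit, y axis) for the 174 measured solute carriers by substrate class (x axis). Each point is 1 gene, placed in order of value within its class, black bars are class medians and the dashed line is the median of all features at -0.01; SLC7A5 at -1.83 and SLC16A4 at 1.55 stand apart from their classes.

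With normexp correction 5 members passed the limma threshold for day 7 minus day 3, 2.87% of the members against 5.02% of all features. SLC7A5 was at -1.49 ± 0.17 (SE, adjusted p = 0.0127), NHERF1 at -1.71 ± 0.31 (0.0293) and SLC15A3 at -0.90 ± 0.17 (0.0311). SLC35B4, a nucleotide sugar carrier, was at -0.68 ± 0.15 (0.0487) and LOC100343888 at 0.95 ± 0.19 (0.0375). All 5 had the same direction in the main fit, with adjusted p from 0.119 to 0.149. Markers of several cell types differed over the same days. Of 9 measured neutrophil markers 8 were lower on day 7, with summed signals of 1050 and 385 on day 3 and 118 and 124 on day 7 for Control and HPD, and all 7 macrophage markers were lower (median -0.89). Of 11 osteoblast markers 9 were higher (median 1.35) and of 6 osteoclast markers 5 (median 0.66). Their part in the carrier values was not tested.

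Within the slide that held days 5 and 7, 0 members passed the limma threshold, as did 0 of all features (0%), and 14 members (8.05%) had an unadjusted p under 0.05 against 8.11% of all features. The median was 0.10 over members and 0.08 over all features. SLC31A1, the copper importer, had the lowest value, at -1.42 and -1.88 on day 5 and -3.73 and -3.21 on day 7 for Control and HPD, a difference of -1.81 ± 0.31 (SE, adjusted p = 0.521). SLC15A1 had the highest, 1.13 ± 0.22 (SE, adjusted p = 0.559). Its 3 other probes above background on every array were also higher on day 7, but by less. The brightest of these was at -2.67 and -2.49 on day 5 and -2.39 and -1.94 on day 7. SLC26A8, at -1.04, was the only other member beyond 2-fold and was above background on just 3 arrays. The 3 are 1.72% of the members, against 4.08% of all features beyond 2-fold.

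The members that the array reads with several probes show how far a value rests on the probe. Of 69 measured members with at least 2 probes above background on all 6 arrays, 46 (66.7%) had all such probes on 1 side of 0 for the mean difference between HPD and Control, and 49 (71%) for day 7 minus day 3. Many of these probes overlap, so they are no independent readings.

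**Figure D4:**
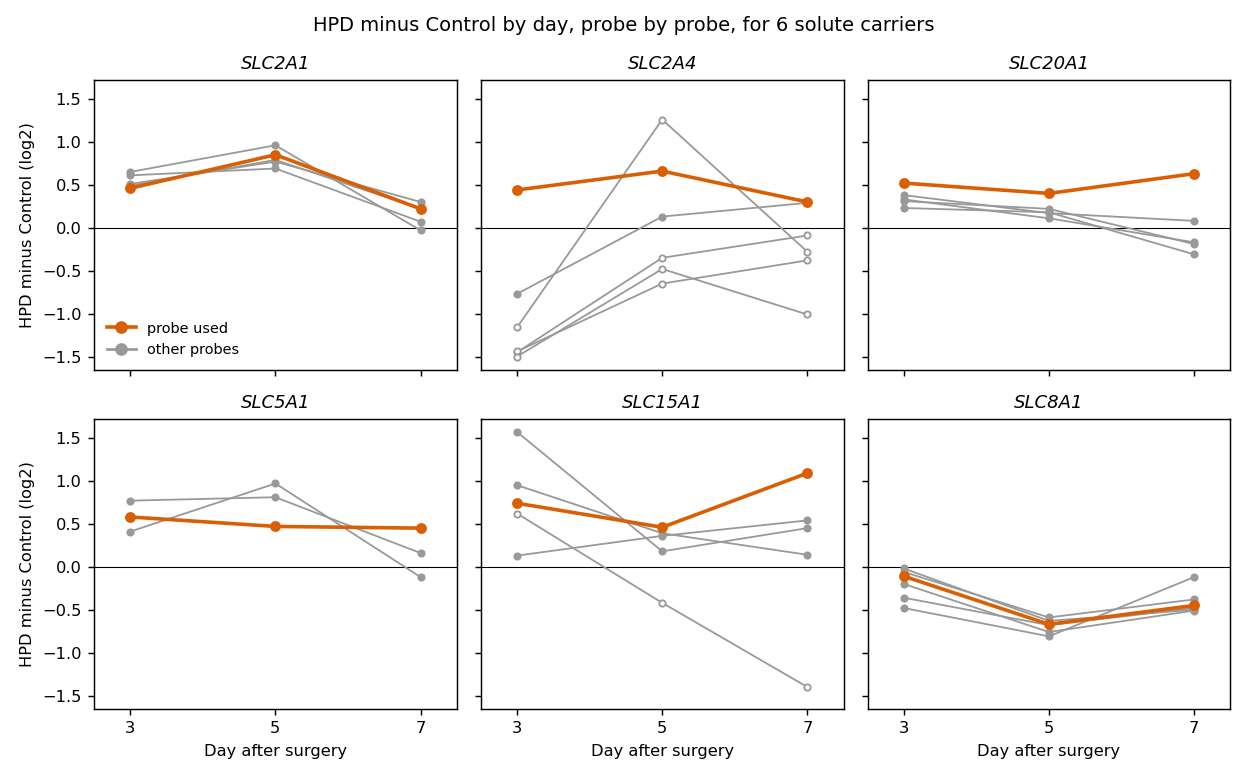
Difference between HPD and Control (log2, y axis) by day after surgery (x axis) for every probe above background on at least 2 arrays of 6 solute carriers. Orange is the probe read, grey lines are the other probes of the gene, and open points mark probes not above background on all 6 arrays; the SLC2A1 and SLC8A1 probes run together, while on day 3 the 5 other SLC2A4 probes lie below 0 and the probe read lies above.

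At the edge of the measured set, the 3 members above background on exactly 3 arrays were SLC10A2, SLC26A8 and SLC39A5, with scaled signals from -5.89 to -3.81. Those on 2 arrays, not measured, were SLC27A2, SLC27A6, SLC2A9, SLC35F4 and SLC5A7. SLC35F4 was at -1.93 in Control on day 3 and at -5.35 or below on every other array.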

How the data were processed

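The authors deposited linear intensity values for each spot, made per the file headers by Agilent Feature Extraction 10.5.1.1 with background subtraction, on a rabbit array designed on oryCun2. The rest of the authors' processing is not given in the sources used here. Here, outlier spots were left out, processed intensities were put on the log2 scale minus each array's 75th percentile, and repeated spots averaged. Probes were named through their description and, by gene number, RefSeq symbols of assembly mOryCun1.1; 7 members kept a gene number only. Of the 193 members, 432 probes were present.

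limma 3.58.1 in R 4.3.3 (with the data.table package, version 1.17.8) fitted day and treatment over all 6 arrays (2 residual degrees of freedom, 2.47 prior), with Benjamini-Hochberg adjustment over 20181 features. Day serves as the block for the pair of arrays taken on it. With 1 array per treatment and day, the SEs and p-values rest on how the treatment difference varies between days. A treatment difference that changes with day therefore counts as spread. Part of that spread may be technical, and spread between animals or repeated arrays was not measured. The fit was tested on simulated data. A dim array gives an "at least" fold against the higher of its own value and the array's lowest signal above background. Python (3.11.15) with numpy 2.4.6, pandas 2.3.3 and, for figures, matplotlib 3.10.9 made the summaries.

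Genes were named by class membership (all measured glucose, osmolyte, phosphate and lactate carriers), by rank among members above background on all arrays (8 highest and 8 lowest per fit, 5 per single day, 5 amino acid and 5 zinc carriers) and from a list of well-known carriers; 2 members are counted but not reported singly here. Members, lists, classes and this rule were chosen with earlier results of these data known. Genes described probe by probe, SLC10A2, SLC26A8, SLC31A1, SLC35B4, SLC46A2, SLC35E4, SLC35F2 and those at the edge of the measured set were chosen after their values were seen. Alternatives were quantile, median and normexp (offset 50) settings, other filters, mean of probes, left-out days and other model terms.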

Additional observations from a re-analysis of the deposited data

How the results depend on the processing

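The count of members past the limma threshold stayed at 0 for HPD against Control and for day 7 against day 5 under every alternative run, left-out days included, and for day 7 minus day 3 under all but normexp, with 5. Counts of members at least 2-fold apart moved more. On day 3, 6 higher became 3 with the median shift, 1 with normexp and 11 without the filter, and 3 lower became 6 with quantile normalization, the median shift or no filter and 0 with normexp. On day 5, 11 higher became 7 with the median shift and 1 with normexp, and 1 lower became 3 with quantile normalization, 2 with the median shift or the mean of probes, 5 without the filter and 0 with normexp. On day 7, 3 higher became 5 and 1 lower became 4 without the filter, and 0 were lower with normexp. With the mean of probes the HPD effect of SLC2A4 turned from 0.47 to -0.36, and day 7 minus day 3 of SLC4A4 turned to 0.27. With normexp, day 7 minus day 3 of SLC17A2 went from -1.01 to 0.00. Of 37 single-gene values, 16 became smaller by over 1.5 times with normexp, and 7 became that much smaller or changed sign with the mean of probes. The cause was not tested. The number of arrays, 1 per treatment and day, limits the precision, and dim probes such as that of SLC6A6 carry differences that normexp compresses.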

Other observations

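Among families outside the substrate classes, the SLC25 carriers of the inner mitochondrial membrane had 18 measured members with a median HPD effect of -0.02, 8 of them higher, and a median of 0.06 for day 7 minus day 3, 11 of them higher. The SLC35 family, which brings nucleotide sugars into the Golgi and endoplasmic reticulum, had 14 measured members with a median HPD effect of 0.09, 11 of them higher, and 9 were lower on day 7 than on day 3 (median -0.14). The SLC4 bicarbonate carriers had a median HPD effect of -0.13 over 5 members, and the 4 SLC15 peptide carriers had 0.33, all 4 higher. The SLC22 carriers of organic ions had a median of 0.06 over 7 members. CA4, a carbonic anhydrase of the cell surface that works beside bicarbonate carriers, was higher with HPD by 2.38, 3.96 and 0.65 on days 3, 5 and 7 (mean 2.33 ± 0.65 SE, adjusted p = 0.555 in the limma fit), while CA2, its counterpart inside the cell, differed by -2.10, 0.89 and 0.31. Carrier SLC4A4 differed by a mean of -0.13. In the limma fit 0 members of these families passed the threshold.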
